A study of Mus musculus with 9 samples.

Results

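The genes described here encode insulin-like growth factor 1 (Igf1), its receptor (Igf1r), both receptor substrates that relay its signal (Irs1 and Irs2) and 6 IGF-binding proteins (Igfbp2 to Igfbp7). They were taken by symbol from a table of ribosome footprint counts, and all 10 were found among its 36410 rows, of which 16813 held a count in any library. Ribosome footprints are the short stretches of mRNA that a ribosome shields from nuclease, so a footprint count reflects both how much mRNA a gene has and how many ribosomes sit on it. The cells were immortalized striatal cells of mouse embryos (strain C57/BL6 in the labels), which divide in culture and come from the striatum, where Huntington disease does most of its damage. Control cells (STHdhQ7/Q7) carried a knock-in Htt exon 1 with 7 glutamine repeats on both alleles, HD-het cells (STHdhQ7/Q111) carried 1 allele with 7 and 1 with 111 repeats, and HD-homo cells (STHdhQ111/Q111) carried 111 repeats on both alleles. All cells received cycloheximide for 10 min, and each line gave 3 libraries from separate rounds of culture. Each genotype was 1 cell line, so genotype and line cannot be told apart. No mRNA libraries were used here.

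IGF1 binds the IGF1 receptor, a tyrosine kinase closely related to the insulin receptor, and the active receptor phosphorylates IRS1 and IRS2, which recruit PI3-kinase and so lead to AKT and to the FOXO transcription factors. Secreted IGF-binding proteins hold most extracellular IGF, shield it from the receptor or deliver it, and are in turn cut by proteases that set the growth factor free. In the brain IGF1 is known as a growth and survival factor for neural precursors and neurons.

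Library totals ran from 22504543 to 41888701 counts, and 3 counts, the limit that a count of 0 allows, correspond to 0.0716 to 0.133 CPM (counts scaled to a total of 1000000 per library). This limit covers counting error only, since amplified fragments were counted without molecular identifiers. The filter on low counts kept 12678 genes, and all 10 IGF genes passed it. Htt, the gene that carries the knock-in, had 28.1, 30.0 and 28.1 CPM in the control libraries, 19.4, 20.6 and 20.9 in those of HD-het and 5.79, 7.69 and 6.39 in those of HD-homo cells, so its footprints were highest in the control line and lowest in the HD-homo line. The 10 markers of striatal projection neurons summed to 44.2 to 50.6 CPM (control), 47.0 to 50.9 (HD-het) and 67.8 to 75.3 (HD-homo), with 3, 2 and 3 markers at 0. Most of this sum was Foxp1, at means of 33.5, 43.1 and 56.9 CPM, and Ppp1r1b (DARPP-32), at 12, 5.18 and 10.5, whereas Drd1 and Drd2 were at 0 in every library and Bcl11b had 7 counts in all 9 libraries. The 6 general neuron markers summed to 131 to 152 CPM over all libraries. Nearly all of this was Tubb3, at means of 101, 84.2 and 102 CPM, and Map2, at 46.5, 55.3 and 44.3. Rbfox3, Snap25, Syt1 and Dcx had means of at most 0.307 CPM in any line. The 7 neural progenitor markers, mostly Vim, summed to 9584 to 9852 CPM (control), 9013 to 9839 (HD-het) and 5991 to 6526 (HD-homo), with 1, 2 and 2 at 0. Apart from Vim, the progenitor markers Nes (400, 1086 and 7.01 CPM on average), Sox2 (51.2, 33.9 and 2.26) and Pax6 (17.3, 24.8 and 0.0759) were nearly lost in HD-homo cells, the line in which Igf1 and Igfbp5 were lowest, while Fabp7 had means of 1.12, 22.3 and 3.04 CPM. Markers of other cell types moved with the lines. The 9 fibroblast or mesenchymal markers summed to 2621 to 4819 CPM (control), 16181 to 20532 (HD-het) and 5557 to 6980 (HD-homo), with 1, 1 and 0 markers at 0. Most of this sum was Col1a1, at means of 3344, 16522 and 4568 CPM. Col3a1 and Pdgfrb were likewise highest in HD-het cells. In contrast, Col1a2 (24.0, 88.9 and 1027 CPM), Pdgfra (3.81, 6.85 and 155), Dcn (7.30, 11.5 and 40.6), Twist1 and Lum were highest in HD-homo cells. The 5 smooth muscle markers summed to 4393 to 5116, 10602 to 12795 and 327 to 529 CPM, with none at 0. Most of this sum was Acta2, at means of 4100, 8388 and 268 CPM, and Tagln, at 535, 3213 and 47.5. Cnn1 (4.63, 59.2 and 2.35) stood in the same order. Myh11 (81.6, 105 and 62.4) and Des (75.8, 70.7 and 47.6) differed less between the lines, and Des was not higher in HD-het cells than in control. The 5 astrocyte markers summed to 2.29 to 3.93, 1.67 to 2.74 and 11.7 to 14.0 CPM, with 1 at 0 in each line. Most of the HD-homo sum was Slc1a3, which had means of 1.67, 0.964 and 11.7 CPM. Gfap and Aldh1l1 went the other way, with their highest means in control cells (1.15 and 0.129 CPM) and their lowest in HD-homo cells. S100b was highest in HD-homo cells, at a mean of only 0.0864 CPM, and Aqp4 was at 0 in every library. The 6 endothelial markers summed to at most 2.32 CPM, the 5 oligodendrocyte markers to at most 1.11 and the 7 microglia or macrophage markers to at most 9.60, and Cx3cr1 was at 0 throughout. The part of these differences in the results that follow was not tested.

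All 10 genes differed among the 3 lines (edgeR's quasi-likelihood test with Benjamini-Hochberg adjustment over 12678 genes, adjusted p under 0.05), as did 78.4% of all genes tested, so a call as such says little about the IGF genes. The sizes are given beside those of all genes as a description, since the members were chosen with earlier results of these data known. In HD-het cells 7 of the 10 differed from control, against 60.1% of all genes, with 6 higher (31% of all genes) and 1 lower (29.1%). In HD-homo cells all 10 differed from control, against 45.7% of all genes, with 5 higher (23.3%) and 5 lower (22.3%). Between the mutant lines 7 differed, against 67.5% of all genes, with 1 higher (34.6%) and 6 lower (32.8%) in HD-homo cells. A difference of at least 2-fold was found for 5 genes in HD-het cells (20.8% of all genes), 8 in HD-homo cells (17.2%) and 6 between the mutant lines (27.3%). The 3 libraries of a line did not overlap those of the other for 7 genes in HD-het against control (71.2% of all genes), 10 in HD-homo against control (55.5%) and 6 between the mutant lines (69.5%). Both comparisons with control used the same control libraries.

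The median absolute log2 difference of the 10 genes was 1.09 in HD-het against control, where it was 0.46 over all genes tested. It was 1.87 in HD-homo against control, where all genes gave 0.32, and 1.43 between the mutant lines, where all genes gave 0.55. Signed medians were 1.09, 0.31 and -1.12, beside 0.02, 0.02 and 0.02 for all genes. The genes fell into several patterns, which the plot of levels by library shows. Igf1 and Igfbp5 were nearly lost in HD-homo cells, and Igfbp6 was high only in HD-homo cells. Igfbp2, Igfbp3, Igfbp4 and Igfbp7 were higher in both mutant lines than in control cells, and Igfbp2 was by far highest in HD-het cells.

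**Figure D1:**
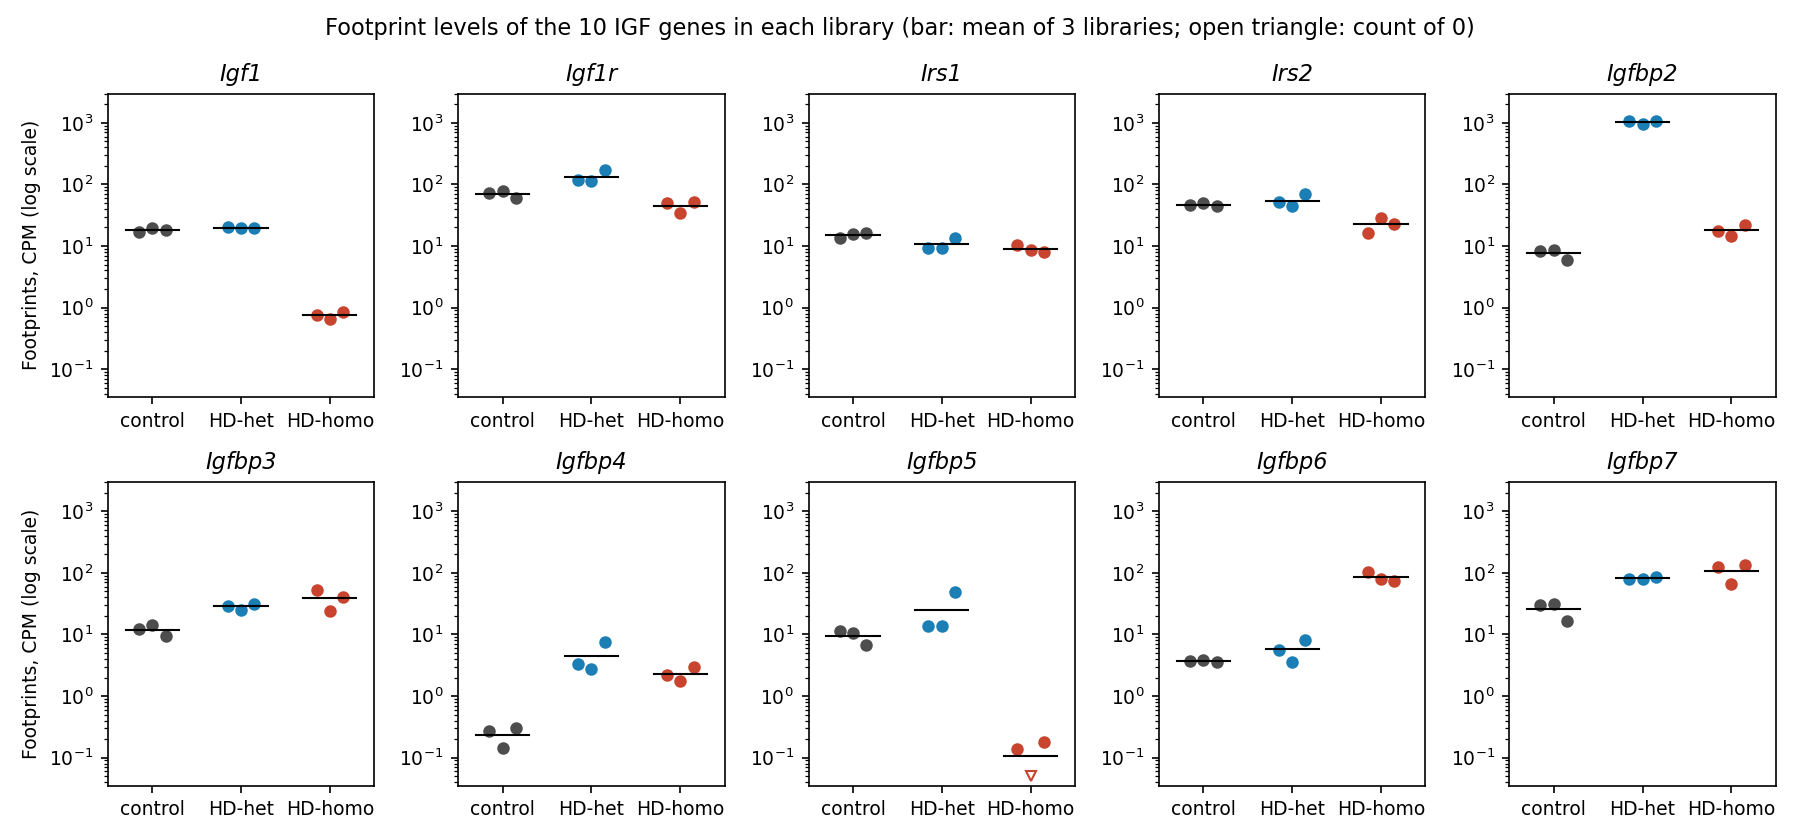
Footprint level of each of the 10 IGF genes (CPM, log scale) in the 3 lines. Each point is 1 library, each bar the mean of 3 libraries, and the open triangle, drawn at the foot of the axis, the HD-homo library with 0 Igfbp5 counts. The lowest HD-het point of Igfbp2 lies at 946 CPM and its highest point in the other lines at 22.0, and the highest HD-homo point of Igf1 at 0.843.

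Igf1 encodes the ligand (chr10:87858265-87937047, plus strand, build GRCm38.p6). Control libraries held 441, 826 and 486 counts, HD-het libraries 546, 706 and 417, and HD-homo libraries 27, 17 and 19. Scaled to library size, these were 16.8, 19.6 and 18.3 CPM in the control libraries, 20.7, 19.4 and 19.7 in those of HD-het and 0.751, 0.650 and 0.843 in those of HD-homo cells. Control and HD-het libraries overlapped, and every HD-homo library lay far below all of them. The means were 18.3 ± 1.40 CPM for control, 20.0 ± 0.685 for HD-het and 0.748 ± 0.0964 for HD-homo cells (SD, n = 3 each). Igf1 was 24.4-fold lower in HD-homo cells than in control, a log2 difference of -4.61 (SE 0.14, edgeR, adjusted p = 8.17e-10). Against HD-het cells it was 26.6-fold lower, at -4.74 (SE 0.14, edgeR, adjusted p = 5.48e-10). HD-het and control cells gave a log2 difference of 0.13 (SE 0.10, edgeR, adjusted p = 0.288), with an interval of -0.07 to 0.32 at 1.96 SE. With offsets for GC content and gene length this small difference turned to -0.35 (adjusted p = 0.0115). In bulk libraries such as these, fewer cells that make a transcript and less of it per cell cannot be told apart. Igf1os, annotated on the opposite strand, had 0 counts in every library.

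Igf1r encodes the receptor that binds IGF1 at the cell surface (chr7:67952257-68233668, plus strand). Its level was 72.4, 78.2 and 59.3 CPM in the control libraries, 118, 115 and 168 in those of HD-het and 50.2, 34.6 and 51.2 in those of HD-homo cells. The 3 lines did not overlap, with HD-het highest and HD-homo lowest, and HD-het replicate 3 stood above its own line. The means were 70.0 ± 9.68 CPM for control, 134 ± 29.8 for HD-het and 45.3 ± 9.31 for HD-homo cells (SD, n = 3 each). Igf1r was 1.91-fold higher in HD-het cells than in control, a log2 difference of 0.94 (SE 0.18, edgeR, adjusted p = 9.38e-04). In HD-homo cells it was 1.54-fold lower than in control, at -0.63 (SE 0.18, edgeR, adjusted p = 0.0152). This fall was no longer called without control replicate 2, at -0.54 (adjusted p = 0.0580), nor with the GC and length offsets, at -0.24 (adjusted p = 0.285). The direct comparison of HD-homo with HD-het cells gave -1.56 (SE 0.18, edgeR, adjusted p = 1.84e-05). Insr, which encodes the insulin receptor, was looked at beside it after its values were seen, and stood in the same order, with 26.5, 29.0 and 22.8 CPM in the control libraries, 33.8, 39.3 and 38.9 in those of HD-het and 11.8, 10.9 and 12.7 in those of HD-homo cells. With the GC and length offsets, the log2 difference of Insr in HD-het against control went from 0.51 to 0.047 (edgeR, adjusted p = 0.715) and was no longer called. Per kilobase of coding sequence, Igf1r exceeded Insr by a ratio of 2.68 ± 0.0667 for control, 3.60 ± 0.704 for HD-het and 3.83 ± 0.584 for HD-homo cells (SD, n = 3 each).

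Irs1 and Irs2 encode the docking proteins that the receptor phosphorylates. Irs1 (chr1:82233105-82291439, minus strand) had 13.7, 15.8 and 16.1 CPM in the control libraries, 9.34, 9.41 and 13.7 in those of HD-het and 10.5, 8.76 and 7.94 in those of HD-homo cells, and all 6 mutant libraries lay below the control libraries. The step down was small in HD-het cells, at -0.50 (SE 0.16, edgeR, adjusted p = 0.0188). This call was lost in 4 of the 9 fits that left out 1 library, with adjusted p-values of 0.0556 without control replicate 2, 0.0558 without control replicate 3, 0.0703 when HD-het replicate 1 was left out and 0.0743 when HD-het replicate 2 was. In HD-homo cells the log2 difference from control was -0.74 (SE 0.16, edgeR, adjusted p = 0.00338). The mutant lines overlapped each other, with a log2 difference of -0.24 (SE 0.17, edgeR, adjusted p = 0.229) and an interval of -0.56 to 0.09. With the GC and length offsets this difference turned to 0.42 (adjusted p = 0.0384).

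Irs2 (chr8:10984681-11008929, minus strand) behaved otherwise. Its level was 45.8, 49.1 and 44.8 CPM in the control libraries, 51.4, 44.3 and 68.6 in those of HD-het and 16.1, 28.3 and 22.7 in those of HD-homo cells. Control and HD-het libraries overlapped and HD-homo libraries lay below both. Irs2 was 2.09-fold lower in HD-homo cells than in control, at -1.06 (SE 0.20, edgeR, adjusted p = 0.00104), and 2.45-fold lower than in HD-het cells, at -1.29 (SE 0.20, edgeR, adjusted p = 1.31e-04). HD-het against control gave 0.23 (SE 0.19, edgeR, adjusted p = 0.316), with an interval of -0.14 to 0.60. Per kilobase of coding sequence, Irs2 exceeded Irs1 by a ratio of 2.86 ± 0.262 for control, 4.73 ± 0.371 for HD-het and 2.37 ± 0.834 for HD-homo cells (SD, n = 3 each), with the HD-het libraries above all others. So Igf1, its receptor and both substrates were all lower in HD-homo cells than in control, while in HD-het cells only Igf1r of these 4 was called higher and only Irs1 was called lower.

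**Figure D2:**
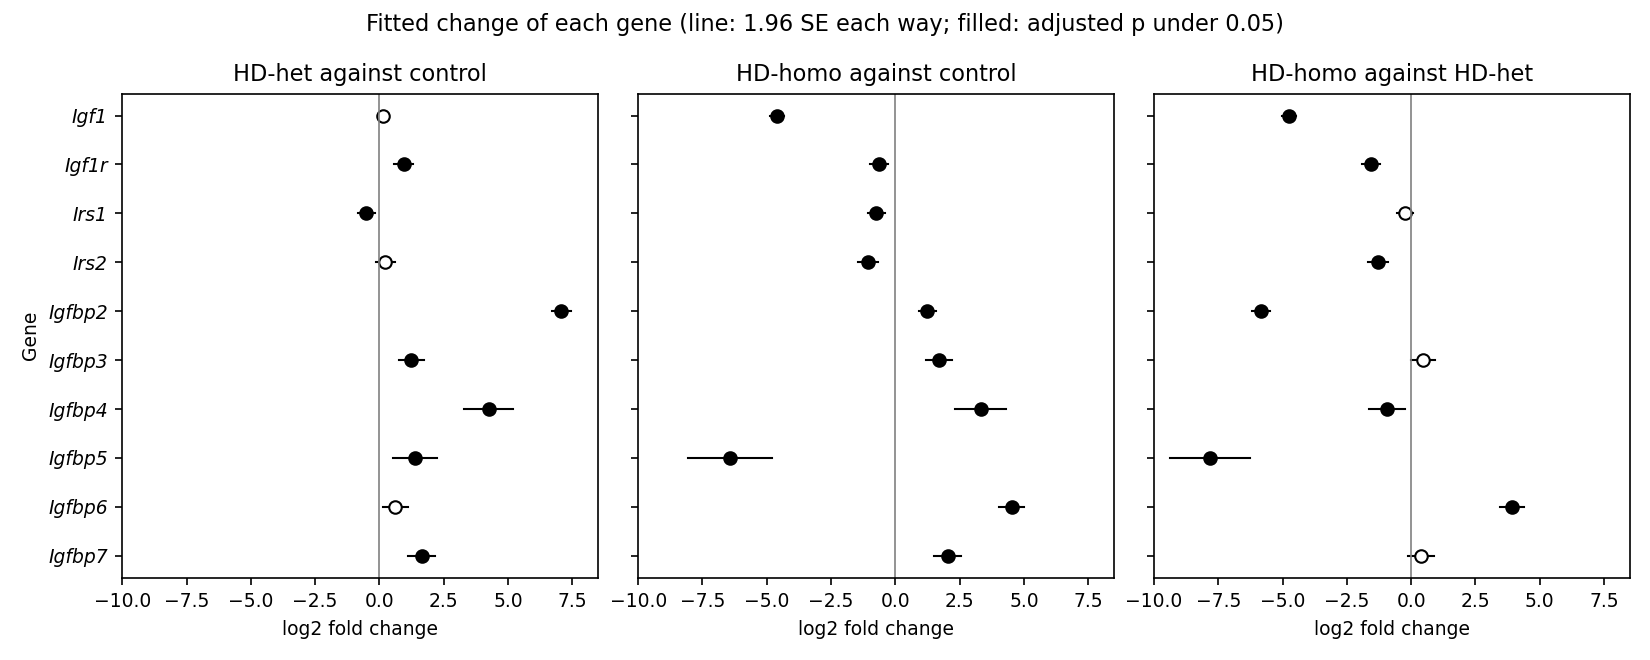
Fitted log2 fold change of each IGF gene in the 3 comparisons, with lines of 1.96 SE each way and filled points where the adjusted p-value was under 0.05. Igfbp2 lies at 7.08 in HD-het against control, and Igf1 and Igfbp5 lie far left of 0 in both comparisons of HD-homo cells.

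The sequence upstream of 3 binding protein genes is shown because these had the largest fitted differences from control among the binding proteins, each in 1 of the mutant lines, and because Igfbp2 and Igfbp5 are neighbours. Each is the 250 bases before the RefSeq start of the gene in build GRCm38.p6, on the strand of the gene, for Igfbp2 at chr1:72824230-72824479 (plus strand), Igfbp5 at chr1:72874866-72875115 (minus strand) and Igfbp6 at chr15:102143936-102144185 (plus strand). Capitals mark matches on either strand to the TATA box TATAAA, the GC box GGGCGG, the E box CACGTG, the AP-1 site TGACTCA or the FOXO site TGTTTAC.
Igfbp2: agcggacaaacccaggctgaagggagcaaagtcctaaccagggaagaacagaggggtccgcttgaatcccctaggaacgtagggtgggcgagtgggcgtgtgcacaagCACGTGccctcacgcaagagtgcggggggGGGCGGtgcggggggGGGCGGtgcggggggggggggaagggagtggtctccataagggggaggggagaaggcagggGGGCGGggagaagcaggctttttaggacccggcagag
Igfbp5: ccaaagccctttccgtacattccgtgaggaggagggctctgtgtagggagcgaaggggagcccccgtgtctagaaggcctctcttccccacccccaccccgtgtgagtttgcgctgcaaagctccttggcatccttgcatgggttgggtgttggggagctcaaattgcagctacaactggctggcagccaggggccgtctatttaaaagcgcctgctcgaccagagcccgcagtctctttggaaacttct
Igfbp6: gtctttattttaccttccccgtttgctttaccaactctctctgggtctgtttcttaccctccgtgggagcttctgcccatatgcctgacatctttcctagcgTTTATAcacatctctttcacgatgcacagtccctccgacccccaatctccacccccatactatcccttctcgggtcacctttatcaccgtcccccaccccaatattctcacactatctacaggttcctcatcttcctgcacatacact
The Igfbp2 window has a GC content of 67.2% and holds 3 GC boxes and 1 E box. Of 32851 mouse promoter windows of this length, 32.7% held at least 1 GC box and 6.02% at least 1 E box, on either strand. The Igfbp6 window has 49.6% GC and holds 1 TATA box on its minus strand, and 12.4% of the windows held at least 1 TATA box on either strand. The Igfbp5 window, at 58.8% GC, holds none of these letters. Among the windows of the other members, those of Igf1, Igfbp3 and Igfbp4 lie inside the RefSeq span of the gene, not before it. All 250 bases of the Igf1 window are in annotated exons. Over all members, the windows of Igf1r, Irs1, Irs2, Igfbp2 and Igfbp7 held a GC box. The windows of Irs1, Irs2 and Igfbp2 held an E box, and those of Igfbp4 and Igfbp6 a TATA box. Neither the AP-1 site (4.46% of windows) nor the FOXO site (3.17%) was in these windows, but the window of a second Igfbp2 start, farther downstream and not shown, held 1 AP-1 site. A match is a description of letters, and footprint counts do not bear on binding there.

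Igfbp2 encodes a binding protein abundant in the developing brain (chr1:72824480-72852474, plus strand). It gave 219, 360 and 157 counts in control libraries, 28361, 34408 and 22738 in HD-het libraries and 632, 384 and 496 in HD-homo libraries. These were 8.36, 8.56 and 5.91 CPM in the control libraries, 1077, 946 and 1075 in those of HD-het and 17.6, 14.7 and 22.0 in those of HD-homo cells. No line overlapped another, and HD-het libraries lay far above the rest. Its mean of 1033 ± 74.8 CPM (SD, n = 3) put it at place 126 of 12678 genes in HD-het cells, against place 8273 in control and 6296 in HD-homo cells. Igfbp2 was 135-fold higher in HD-het cells than in control, at 7.08 (SE 0.20, edgeR, adjusted p = 9.70e-10), which placed it at 56 of 12678 genes by the size of the fitted difference. In HD-homo cells it was 2.36-fold higher than in control, at 1.24 (SE 0.17, edgeR, adjusted p = 9.75e-05). HD-homo cells had 57.2-fold less than HD-het cells, at -5.84 (SE 0.18, edgeR, adjusted p = 9.09e-10). All 18 alternative fits kept each of these calls.

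Igfbp5, whose product binds IGF in the extracellular matrix and in bone, lies next to Igfbp2 (chr1:72858065-72874865, minus strand). The genes point toward each other, 5590 bp apart, with 0 other RefSeq genes between them, and yet their levels were unlike. Igfbp5 gave 293, 447 and 180 counts in control, 365, 492 and 1023 in HD-het and 5, 0 and 4 in HD-homo libraries. Scaled by depth, control libraries had 11.2, 10.6 and 6.77 CPM, HD-het libraries 13.9, 13.5 and 48.4 and HD-homo libraries 0.139, 0 and 0.177. The HD-homo libraries were at or near the limit of detection, the control libraries near 10 CPM, and HD-het replicate 3 held 3.58 times the lowest HD-het level. Over the 3 libraries of each line, 920 control counts stood against 9 in HD-homo cells, a ratio of 91.3 (exact 95% interval 47.9 to 200.3) that covers counting error only, and the fit gave -6.44 (SE 0.83, edgeR, adjusted p = 7.52e-05). HD-het cells held 211 (exact 95% interval 111 to 462) times the HD-homo level by the same count, and the fit gave -7.82 (SE 0.79, edgeR, adjusted p = 5.58e-06). The rise in HD-het against control cells, at 1.39 (SE 0.44, edgeR, adjusted p = 0.0178), rested on HD-het replicate 3. Without that library it was 0.50 (adjusted p = 0.0999), without control replicate 3 it was 1.19 (adjusted p = 0.0616), and DESeq2 gave 1.42 (adjusted p = 0.0656).

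Igfbp6, which codes for a binding protein that prefers IGF2, rose in HD-homo cells (chr15:102144186-102149512, plus strand). Its level was 3.70, 3.85 and 3.54 CPM in the control libraries, 5.66, 3.63 and 8.23 in those of HD-het and 103, 79.8 and 75.1 in those of HD-homo cells. Every HD-homo library lay far above every other library, whereas HD-het and control libraries overlapped. Igfbp6 was 23.2-fold higher in HD-homo cells than in control, at 4.53 (SE 0.25, edgeR, adjusted p = 6.94e-08), and 15.1-fold higher than in HD-het cells, at 3.91 (SE 0.24, edgeR, adjusted p = 1.19e-07). HD-het cells differed from control by 0.62 (SE 0.25, edgeR, adjusted p = 0.0516), just outside the threshold. That value passed it in 8 of 18 alternative fits, among them DESeq2, at 0.66 (adjusted p = 0.0148), and the fit without HD-het replicate 2, at 0.88 (adjusted p = 0.00409).

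Igfbp3 and Igfbp7 were higher in both mutant lines. Igfbp3 (chr11:7206086-7215498, minus strand) encodes the main carrier of IGF in blood. Its level was 12.5, 14.2 and 9.44 CPM in the control libraries, 29.2, 25.4 and 31.6 in those of HD-het and 53.3, 23.7 and 40.9 in those of HD-homo cells, and both mutant lines lay above every control library. The log2 difference from control was 1.24 (SE 0.25, edgeR, adjusted p = 0.00129) in HD-het cells. In HD-homo cells it was 1.70 (SE 0.25, edgeR, adjusted p = 2.12e-04). The mutant lines overlapped, and the log2 difference of 0.46 (SE 0.24, edgeR, adjusted p = 0.114) had an interval of -0.02 to 0.93. HD-homo replicate 2 was the lowest of its line, and without it HD-homo exceeded HD-het cells by 0.72 (adjusted p = 0.00292).

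Igfbp7 (chr5:77349240-77408045, minus strand) encodes a more distant relative that binds IGF weakly. It had 30.4, 31.4 and 16.8 CPM in the control libraries, 81.0, 78.8 and 87.0 in those of HD-het and 124, 65.5 and 135 in those of HD-homo cells. As with Igfbp3, every mutant library was above every control library and HD-homo replicate 2 was the lowest HD-homo library. Igfbp7 was 3.13-fold higher than control in HD-het cells, at 1.65 (SE 0.27, edgeR, adjusted p = 3.05e-04), and 4.11-fold higher in HD-homo cells, at 2.04 (SE 0.27, edgeR, adjusted p = 9.40e-05). Between the mutant lines the log2 difference was 0.39 (SE 0.26, edgeR, adjusted p = 0.198), which rose to 0.66 (adjusted p = 0.0133) without HD-homo replicate 2. The gene overlaps Polr2b by 85 bp on the opposite strand, and it is not given in the sources used here whether strand was used in counting. Polr2b, an RNA polymerase II subunit, differed by -0.40, -0.05 and 0.35 on the log2 scale in the same 3 comparisons.

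Igfbp4 encodes the binding protein that the protease PAPP-A cuts (chr11:99040005-99052655, plus strand). It was barely present in control cells, with 7, 6 and 8 counts, and had 86, 99 and 157 counts in HD-het and 79, 46 and 66 in HD-homo libraries. Scaled by depth, control libraries had 0.267, 0.143 and 0.301 CPM, HD-het libraries 3.26, 2.72 and 7.42 and HD-homo libraries 2.20, 1.76 and 2.93. All mutant libraries lay above all control libraries. The level in HD-het cells was 18.4 (exact 95% interval 11.9 to 30.1) times that of control by counts alone, and the fit gave 4.26 (SE 0.49, edgeR, adjusted p = 2.39e-05). For HD-homo cells the ratio to control was 10.2 (exact 95% interval 6.48 to 16.8) and the fit gave 3.32 (SE 0.51, edgeR, adjusted p = 2.88e-04). HD-homo was called lower than HD-het cells, at -0.94 (SE 0.36, edgeR, adjusted p = 0.0353), although the libraries of the 2 lines overlapped. The call was lost without HD-het replicate 3, at -0.39 (adjusted p = 0.202), without HD-homo replicate 1, at -0.91 (adjusted p = 0.0857), without HD-homo replicate 2, at -0.78 (adjusted p = 0.103), and with the GC and length offsets, at -0.76 (adjusted p = 0.0664).

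The binding proteins were next set side by side per kilobase of coding sequence, since a longer coding sequence collects more footprints. Their sum was 67.2 ± 16.0 CPM per kb for control, 1294 ± 109.5 for HD-het and 303 ± 68.3 for HD-homo cells (SD, n = 3 each). The lines did not overlap in this sum, and its makeup differed in which gene led. In control cells Igfbp7 held 41.0% ± 3.71 of it, Igfbp3 20.6% ± 1.59, Igfbp5 17.4% ± 0.811, Igfbp2 12.5% ± 0.647 and Igfbp6 8.00% ± 1.86. In HD-het cells Igfbp2 alone held 87.3% ± 2.11 and Igfbp7 6.79% ± 0.336. In HD-homo cells Igfbp6 held 40.6% ± 8.38, Igfbp7 37.3% ± 6.84, Igfbp3 14.4% ± 2.50 and Igfbp2 6.62% ± 1.11. Thus Igfbp2 led in HD-het cells, and Igfbp6 and Igfbp7 together in HD-homo cells. Without Igfbp2 the remaining 5 summed to 58.9 ± 14.4 CPM per kb for control, 166 ± 38.5 for HD-het and 283 ± 65.9 for HD-homo cells, so control stayed lowest.

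**Figure D3:**
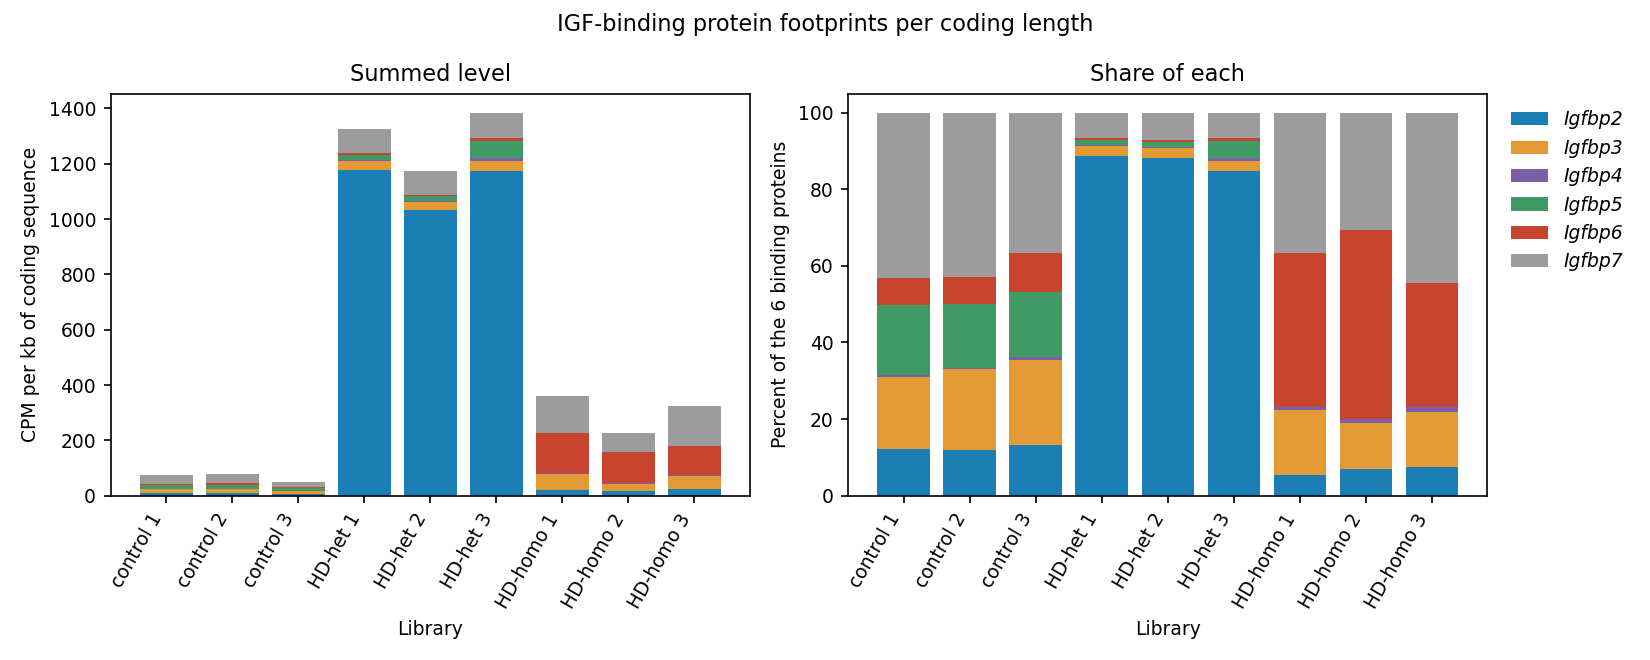
Footprints of the 6 binding proteins in each library, as CPM per kilobase of coding sequence (left) and as percent of their sum (right). Each bar is 1 library and each colour 1 gene. Igfbp2 fills 84.9% to 88.8% of the HD-het bars, and Igfbp6 32.5% to 49.2% of the HD-homo bars.

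Ordered by CPM per kb, Igf1 stood first of the 10 genes in control cells, at 36.9 ± 2.84, followed by Igfbp7 at 27.9 ± 8.69 and Igf1r at 17.0 ± 2.36 (SD, n = 3 each). From Igfbp7 through Igf1r, Igfbp3, Irs2, Igfbp5 and Igfbp2, neighbours in this order overlapped between libraries, and Igfbp6, Irs1 and Igfbp4 followed without overlap. In HD-het cells the order began with Igfbp2 at 1129 ± 81.8, Igfbp7 at 87.6 ± 4.51 and Igf1 at 40.3 ± 1.38 CPM per kb, each apart from the next. Igfbp3, Igf1r, Igfbp5, Irs2, Igfbp6, Igfbp4 and Irs1 came after them, each overlapping its neighbour. In HD-homo cells Igfbp6 at 120.3 ± 20.8 and Igfbp7 at 115 ± 39.7 CPM per kb overlapped at the top, and Igfbp3, Igfbp2, Igf1r and Irs2 followed, each apart from the next. Igf1 at 1.51 ± 0.195 and Igfbp5 at 0.130 ± 0.115 CPM per kb closed the HD-homo order, in place 9 and 10, so the ligand went from the first place in control to the place before the last.

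Other genes of the pathway were taken from a list of 56, of which 47 passed the filter on low counts. Of these 47, 32 differed between HD-het and control cells (17 higher, 15 lower), 25 between HD-homo and control cells (11 higher, 14 lower) and 34 between the mutant lines (14 higher, 20 lower in HD-homo), against 60.1%, 45.7% and 67.5% of all genes. The median absolute log2 difference of the list was 0.47, 0.47 and 0.57 in the 3 comparisons, against 0.46, 0.32 and 0.55 for all genes. The largest differences were among the other binding proteins, the proteases that cut IGF-binding proteins, and their inhibitors. Of 8 such genes tested, 7, 6 and 7 were called in the 3 comparisons, and their median absolute log2 difference was 1.74, 2.29 and 2.30. Of the 20 genes of PI3-kinase, AKT and FOXO, 11, 6 and 13 were called, with a median absolute log2 difference of 0.31, 0.19 and 0.33.

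Pappa, which encodes the protease PAPP-A that cuts IGFBP4, had 2.25, 2.12 and 1.09 CPM in the control libraries, 72.2, 76.9 and 89.3 in those of HD-het and 13.8, 12.3 and 11.9 in those of HD-homo cells. The lines did not overlap, and HD-het was highest. Its log2 difference from control was 5.42 (SE 0.20, edgeR, adjusted p = 1.06e-08) in HD-het and 2.78 (SE 0.20, edgeR, adjusted p = 6.26e-07) in HD-homo cells, and HD-homo against HD-het gave -2.65 (SE 0.17, edgeR, adjusted p = 1.51e-07). Igfbp4 stood in the same order of lines by its mean. Stc2, which encodes an inhibitor of PAPP-A, had 5.58, 5.02 and 4.78 CPM in the control libraries, 8.96, 8.77 and 15.2 in those of HD-het and 0.890, 1.07 and 1.64 in those of HD-homo cells, and HD-homo against HD-het gave a log2 difference of -3.22 (SE 0.27, edgeR, adjusted p = 1.41e-06).

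Adam12, a membrane protease known to cut IGFBP3 and IGFBP5, had 31.2, 35.4 and 21.6 CPM in the control libraries, 100.2, 94.4 and 121 in those of HD-het and 4.42, 2.52 and 9.62 in those of HD-homo cells. It rose by 1.84 (SE 0.32, edgeR, adjusted p = 4.75e-04) in HD-het cells, and in HD-homo cells its log2 difference was -2.45 (SE 0.35, edgeR, adjusted p = 1.82e-04) from control and -4.28 (SE 0.37, edgeR, adjusted p = 1.71e-06) from HD-het cells. The order was therefore that of Igf1r and Igfbp5, with HD-het highest and HD-homo lowest. Mmp2, a gelatinase, had 18.4, 20.3 and 13.9 CPM in the control libraries, 48.3, 49.5 and 67.1 in those of HD-het and 158, 114 and 173 in those of HD-homo cells. Like Adam12 it was higher in HD-het cells than in control, by 1.64 (SE 0.19, edgeR, adjusted p = 2.78e-05). Unlike Adam12 it was highest in HD-homo cells, with a log2 difference of 3.07 (SE 0.20, edgeR, adjusted p = 3.00e-07) from control. Against HD-het cells the HD-homo difference of Mmp2 was 1.43 (SE 0.19, edgeR, adjusted p = 3.82e-05). Htra1, a secreted serine protease, was higher in HD-het cells than in control by 2.02 (SE 0.25, edgeR, adjusted p = 4.56e-05). In HD-homo cells it was higher than in control by 0.84 (SE 0.25, edgeR, adjusted p = 0.0162), a call kept in 16 of 18 alternative fits. Its level was 45.1, 48.8 and 36.2 CPM in the control libraries, 143, 133 and 252 in those of HD-het and 102, 63.9 and 67.6 in those of HD-homo cells.

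Among the adaptors and feedback genes, 15 were tested and 10, 11 and 11 were called in the 3 comparisons, where 60.1%, 45.7% and 67.5% of all genes were, so the counts for HD-het against control and between the mutant lines were near the background. Grb10, an adaptor that binds the IGF1 and insulin receptors and restrains their signal, had 279, 277 and 237 CPM in the control libraries, 193, 205 and 166 in those of HD-het and 831, 834 and 774 in those of HD-homo cells. It was thus lowest in HD-het cells, where its log2 difference from control was -0.49 (SE 0.10, edgeR, adjusted p = 0.00123), and highest in HD-homo cells, at 1.62 (SE 0.10, edgeR, adjusted p = 2.13e-07) from control and 2.11 (SE 0.10, edgeR, adjusted p = 2.03e-08) from HD-het cells. Grb14, a related adaptor, fell by 0.95 in HD-het and by 1.80 in HD-homo cells against control (edgeR, adjusted p = 6.31e-04 and 9.59e-06). Sos2, an exchange factor for Ras, fell by 1.58 in HD-homo cells against control (edgeR, adjusted p = 2.09e-06). Grb2, the adaptor that brings SOS to receptors, was higher in HD-homo cells than in HD-het by 0.59 (SE 0.07, edgeR, adjusted p = 3.12e-05). Against control, Grb2 was lower in HD-het cells, at -0.47 (SE 0.07, edgeR, adjusted p = 2.30e-04). It was not called in HD-homo cells against control, at 0.12 (SE 0.07, edgeR, adjusted p = 0.221). Phlpp1, a phosphatase of AKT, fell by 0.89 in HD-het cells against control (adjusted p = 5.40e-04).

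**Figure D4:**
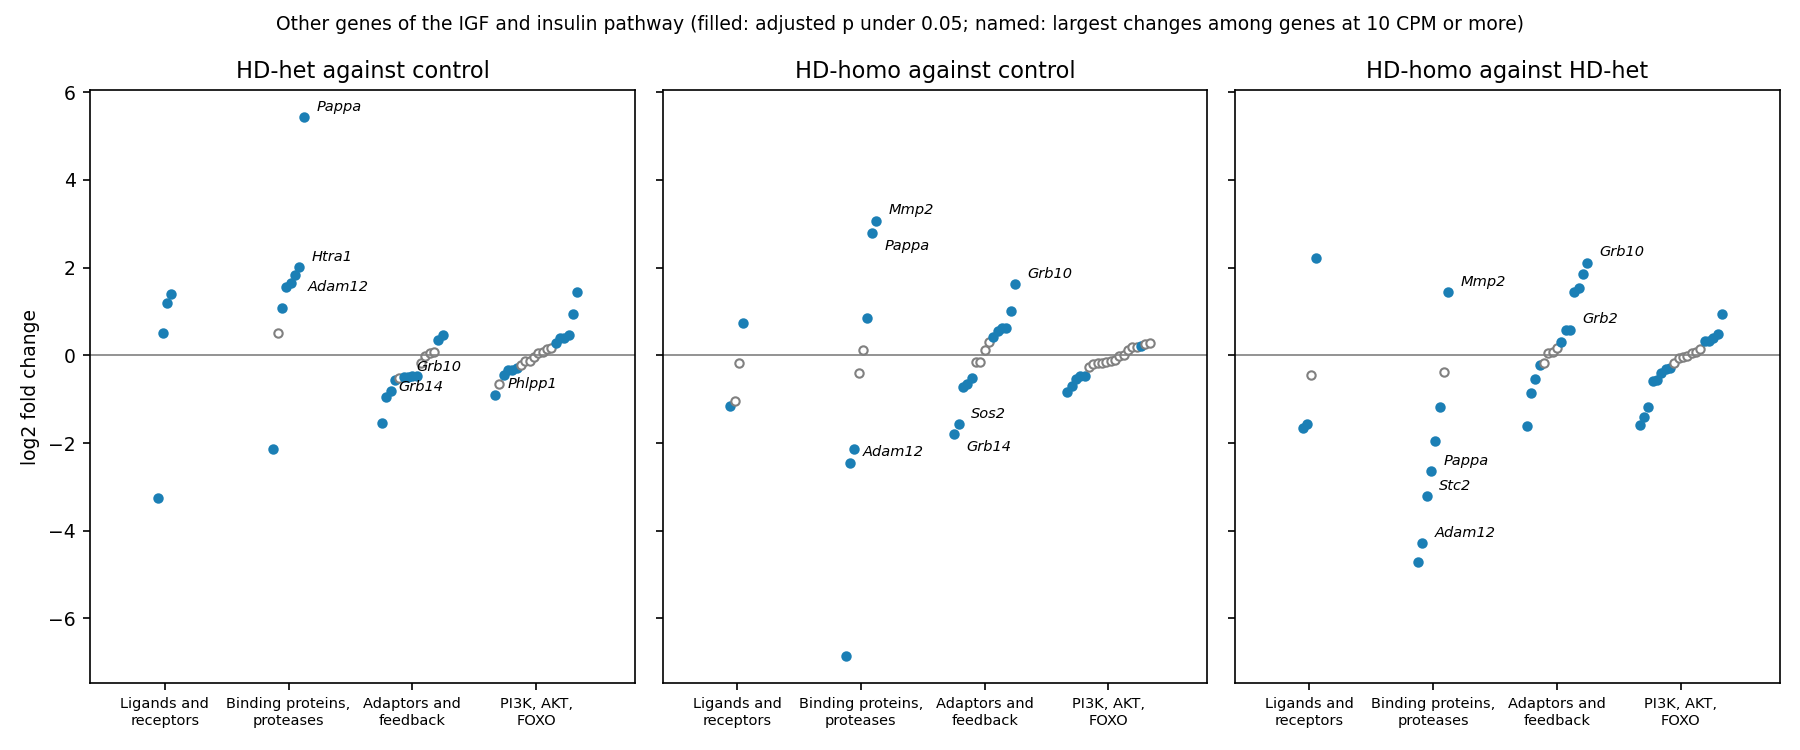
Log2 fold change of the 47 tested genes of the pathway list in the 3 comparisons, grouped by role, with filled points where the adjusted p-value was under 0.05. Names mark the called genes with the largest rise and fall that reached 10 CPM in the higher line. The spread is widest for binding proteins and proteases, where Pappa reaches 5.42 in HD-het against control.

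Of the other receptors and ligands, Igf2r and Igf2 were looked at after their values were seen. Igf2r, which clears IGF2 from the cell surface, had 112, 126 and 79.9 CPM in the control libraries, 242, 252 and 346 in those of HD-het and 112, 81.7 and 87.4 in those of HD-homo cells. It was higher in HD-het cells than in control by 1.40 (SE 0.19, edgeR, adjusted p = 7.76e-05), while HD-homo and control libraries overlapped, at -0.17 (SE 0.19, edgeR, adjusted p = 0.476). Igf2, the second ligand of the receptor, stayed at or under 0.642 CPM in every library, so Igf1 was the more abundant ligand in control and HD-het cells, also per kilobase. In HD-homo cells both ligands were low.

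For each member, the 2 genes whose log2(CPM + 0.5) followed it most closely over the 9 libraries were named as a description. With 3 lines of 3 libraries, a correlation over 9 libraries mostly reflects the 3 line means, and all libraries of a line share their line. Igf1 was followed by Epb41l4a (r = 0.999) and Acp6 (r = 0.998), which were likewise low in HD-homo cells. Igf1r went with Atf6 (r = 0.995) and Crim1 (r = 0.994), Irs1 with Morc2a (r = 0.959) and Gcn1l1 (r = 0.952), and Irs2 with Scaf4 (r = 0.978) and Cep295 (r = 0.964). Igfbp2, by far highest in HD-het cells, went with Crispld2 (r = 0.997) and Serpine2 (r = 0.997). Of these, Serpine2, a secreted protease inhibitor, had mean levels of 3.00, 169 and 6.26 CPM in the 3 lines, named in the order control, HD-het and HD-homo. Igfbp6 was followed by Itih2 (r = 0.995) and Thbd (r = 0.994). Thbd, which encodes thrombomodulin, had mean levels of 0.116, 0.512 and 187 CPM in the same order. Igfbp3 and Igfbp7 shared both of their nearest genes, Pear1 and Rassf1, with r between 0.979 and 0.983. The nearest genes of Igfbp4 were Gprc5b (r = 0.978) and Zcwpw1 (r = 0.977), and those of Igfbp5 Ktn1 (r = 0.993) and Nceh1 (r = 0.988).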

How the data were processed

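Ribosome footprints (26 to 32 nt) of the 80S monosome fraction were sequenced in 9 libraries, 3 per line. Raw counts of footprints by gene symbol, with a column for each library, were deposited by the authors without normalization or pooling. Bowtie 1.0.1, cutadapt and build mm10 are named in the submitters' processing notes. The counting program, its annotation and its use of strand are not given in the sources used here. Short fragments shared by near-identical sequences may have been lost or split in alignment.

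Counts were tested with edgeR 4.0.16 (limma 3.58.1, R 4.3.3), with quasi-likelihood F tests, TMM factors, the filterByExpr filter by line and line means as the only terms, fitted on all 9 libraries, and Benjamini-Hochberg adjustment over 12678 genes at 0.05. The study's methods state no test for gene counts, so this standard test was used. CPM are counts scaled to a TMM-adjusted total of 1000000, and CPM per kb divides by the longest coding sequence of the gene in GENCODE M21, taken in place of a protein table not used here. Fold changes are log2 with their standard error, and intervals are 1.96 SE. Intervals of count ratios are exact and cover counting error only. The procedure was tested on simulated data.

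The members and lists were chosen with earlier results of these data known. Named were all members, Htt, in each comparison the 3 called pathway genes that rose most and the 3 that fell most among those that reach 10 CPM in the higher line, and the 2 genes most correlated with each member that reach 10 CPM in some line. Other genes were named after their values were seen. Alternatives were RLE size factors, library totals, DESeq2 1.42.0, an unfiltered table, a minimum of 10 counts in all libraries, only the 6 libraries compared, a replicate block, rows under older or date-like symbols left out, offsets for GC content and transcript length (loess, span 0.5, known for 98.2% of genes), an adjusted p under 0.01, a 2-fold minimum, and leaving out each library. The table had 26 rows whose symbol had become a date (0.252% of counts) and 288 rows under an older symbol (0.224%). RefSeq names matched 93.0% of rows and all 10 members. Libraries of a line differed by more than sampling noise and were kept as separate samples.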

Additional observations from a re-analysis of the deposited data

Results flagged for a closer look

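For 2 members, HD-het and HD-homo cells were called on opposite sides of control. The direct test of HD-homo against HD-het cells shows that these lines differ. It does not test whether they lie on opposite sides of control, which rests on each comparison with control. Igf1r was higher than control in HD-het and lower than control in HD-homo cells, with a difference between them of -1.56 on the log2 scale (edgeR, adjusted p = 1.84e-05). The fall of Igf1r in HD-homo against control cells was no longer called without control replicate 2, at -0.54 (adjusted p = 0.0580), nor with the GC and length offsets, at -0.24 (adjusted p = 0.285). Igfbp5 was higher than control in HD-het and nearly absent in HD-homo cells, with a difference between them of -7.82 (edgeR, adjusted p = 5.58e-06). The rise of Igfbp5 in HD-het cells rested on 1 library, and without HD-het replicate 3 the HD-het value against control was 0.50 (adjusted p = 0.0999).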

How the results depend on the processing

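Of 534 values of members recomputed under the alternatives, 506 kept their direction and their side of the threshold, 14 lost and 11 gained a call, and 3 reversed. All 3 reversals came with the GC and length offsets and concerned small differences, namely Igf1 in HD-het against control at -0.35 (adjusted p = 0.0115), Irs2 in HD-het against control at -0.041 (adjusted p = 0.867) and Irs1 in HD-homo against HD-het at 0.42 (adjusted p = 0.0384). Igf2r in HD-homo against control, which was not called, also turned, to 0.090 (adjusted p = 0.698). The cause was not tested. Library totals in place of TMM gained Igfbp3 in HD-homo against HD-het, at 0.53 (adjusted p = 0.0486). Igfbp4 and Igfbp5 were not tested under the filter on 10 counts in every library, which leaves fewer genes. Requiring a 2-fold difference lowered the counts of called genes, by its construction, to 2636, 2182 and 3460 of all genes and to 12, 10 and 18 of the pathway list in the comparisons of HD-het with control, of HD-homo with control and of both mutant lines. Leaving out 1 library, the number of members called ranged from 5 to 8, 9 to 10 and 6 to 8 in the same order. No pairing of libraries by replicate number was evident. Same-numbered libraries of different lines correlated at -0.29 to 0.16 in their deviations from line means, and differently numbered ones at -0.22 to 0.30. Not every library correlated best with its own number. With 3 libraries behind each line mean, this cannot exclude a pairing. With the replicate block, 6, 10 and 7 members were called, and Igfbp5 in HD-het against control was no longer called, at 1.12 (adjusted p = 0.0582). All 30 levels per kilobase moved by less than 1 SD with library totals. Comparing protein sequences of the members was planned and not run. The depth limits Igfbp4 in control cells (21 counts in 3 libraries) and Igfbp5 in HD-homo cells (9 counts).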

Other observations

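Of the pathway list, 9 genes did not pass the filter on low counts. Igfbp1, which lies 3539 bp from Igfbp3 with 0 RefSeq genes between them, had 0 counts in every library. Igfals, which encodes a liver-made partner of IGFBP3 in blood, and Ins1 reached at most 1 count in a library.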
